A study of Schizosaccharomyces pombe with 5 samples.

Results

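meiRNA, the long non-coding RNA transcribed from the sme2 gene of fission yeast, was examined in the CLIP-Seq peak lists of the RNA-binding proteins Mei2 and Msa1. The locus was taken as every listed peak overlapping a fixed window of chromosome II (ASM294v2) that reaches from beyond the 3′ end of the neighbouring gene aga1 to beyond the 5′ end of sme2, a rule of position alone. It gave 1 of the 128 peaks in the Mei2 list and 1 of the 140 peaks in the Msa1 list, or 2 of 268 in all. CLIP-Seq crosslinks RNA to protein with ultraviolet light, immunoprecipitates the protein through a tag and sequences the RNA that comes down with it.

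The series held 2 libraries of Mei2-TAP cells, 2 of Msa1-TAP cells and 1 of untagged cells, all of the homothallic mating type h90, in which 1 culture can mate with itself and enter meiosis. In each tagged strain the TAP tag was joined to the C-terminus of the gene's own product, with KanMX as the marker. All 3 strains carried ura4-D18 and leu1-32. Cells were grown at 30 °C and moved to ME medium, poor in nitrogen, for 4 h. Elsewhere in the labels harvests at 4, 5 and 6 h are named for the same cultures. Each peak list is filed with 1 tagged library. The values below were therefore taken as those of 1 Mei2-TAP library, 1 Msa1-TAP library and the untagged library. With no replicate, no p-value was computed and each interval is a 95% interval of counting error alone. Libraries came from bulk cultures, so more cells holding meiRNA and more meiRNA per cell cannot be told apart, and no library of input RNA was analysed here.

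Mei2 is the protein that commits starved cells to meiosis. In growing cells the Pat1 kinase keeps it inactive, and the YTH-family protein Mmi1 binds meiotic transcripts and delivers them to the nuclear exosome for destruction. meiRNA binds Mei2 and forms with it a dot at the sme2 locus, and its many copies of the Mmi1 hexamer hold Mmi1 there, which spares the meiotic transcripts. The RNA has been described as a short form and a 3′ extended, meiotic form. Msa1 is another RNA-binding protein, tagged in the study as a second control, since some RNAs are recovered with many RNA-binding proteins.

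The stretch of the locus richest in the Mmi1 hexamer is printed first, because it lies under both peaks and spans the annotated 3′ end of sme2. It is the 300 nt of the Msa1 peak with the most copies, 11 of them, at chromosome II 339146 to 339445 on the minus strand, which is the sme2 strand. Capitals mark the hexamer, spelled UNAAAC where N is U, C or G but not A. The first 100 nt belong to annotated sme2 and the last 200 nt lie downstream of it.

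sme2 3′ end and downstream: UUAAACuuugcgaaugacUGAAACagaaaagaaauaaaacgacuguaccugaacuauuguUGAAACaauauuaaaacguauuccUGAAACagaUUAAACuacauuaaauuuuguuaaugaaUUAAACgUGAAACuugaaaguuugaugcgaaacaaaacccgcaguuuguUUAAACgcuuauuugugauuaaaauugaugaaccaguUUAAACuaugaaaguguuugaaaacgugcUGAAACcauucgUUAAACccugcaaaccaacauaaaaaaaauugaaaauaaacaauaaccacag

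The study's own primer pair for meiRNA was placed on the same chromosome, to show which part of the locus a PCR of meiRNA reads. Each primer matched the genome at 1 site. The forward primer lies at chromosome II 339610 to 339628 and the reverse primer at 339469 to 339488, giving a product of 160 nt that lies wholly under both peaks and inside sme2 as annotated. It ends 770 nt short of the annotated short form, a distance that holds for the RefSeq annotation alone. The product also lies inside SPNCRNA.4674, a non-coding RNA of the other strand, so its position does not settle which RNA is read. The primers are given as ordered, 5′ to 3′, with no capitals.
sme2-RT-F: ccccaagttggtttatgtg
sme2-RT-R: aacaatgcagccaaaaagtg

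The first comparison asked how strongly the locus was recovered with Mei2. The Mei2 peak held 5277.5 tags in the Mei2-TAP library, against 79.5 tags in the untagged library. Scaled to the library totals, this was 86.4-fold more than untagged (95% interval 69.2 to 109). The peak held 2.72% of the 194019 tags of the Mei2-TAP library (2.65 to 2.79, Wilson), against 0.0315% of all 252516 untagged tags (0.0253 to 0.0392). A tag is 1 sequenced fragment, each read of a pair counting as 0.5.

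Nearly 1 tag in 2 of the whole Mei2 list came from this peak. It supplied 47.6% of the 11097 Mei2-TAP tags in listed peaks, against 5.14% of the untagged tags in the same peaks. It stood 1st of 128 in tags, and the next 3 peaks held 1426.5 tags at prl53, a non-coding RNA, 899.5 tags at snoU14, a small nucleolar RNA gene, and 321 tags over the non-coding SPNCRNA.857 and the protein-coding SPACUNK4.17. These were 4.01-fold (3.61 to 4.46), 4.29-fold (3.74 to 4.93) and 7.81-fold (5.83 to 10.6) above untagged. The intervals of the 3 do not reach that of meiRNA.

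Of the 128 Mei2 peaks, 8 had an interval of the fold wholly above 4 (6.25%), and the meiRNA peak was 1 of them. Its lower bound of 69.2 was the highest in the list, with 10.99 the next. By fold alone it stood 2nd, below a 108-fold peak that rests on 0.5 untagged tags. By tags per kb of peak it stood 3rd with 1400, below prl53 and snoU14, whose peaks are 200 and 250 nt long. By HOMER's peak score it had the lowest value of the list, 9, shared by 22 peaks (median 11.5, highest 230). Its clonal fold, HOMER's ratio of tags to those expected from the distinct tag positions, was 1.21, where the list had a median of 0.99 and a maximum of 1.83. The part of duplicate reads in the tag count was not tested.

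**Figure D1:**
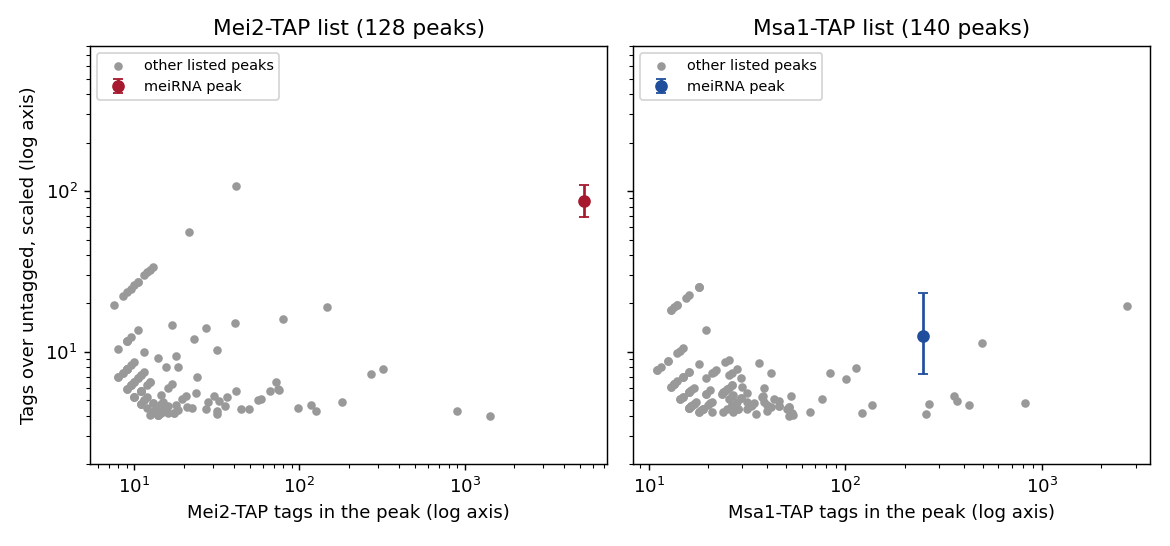
Each point is 1 listed peak, with tags of the tagged library on the x axis and the fold over untagged on the y axis, both logarithmic, for the Mei2-TAP list (left) and the Msa1-TAP list (right). Coloured points are the meiRNA peaks with 95% counting intervals. In the Mei2-TAP list meiRNA lies at 5277.5 tags and 86.4-fold, away from the other 127 peaks, and in the Msa1-TAP list at 249 tags and 12.5-fold.

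The second comparison asked how strongly the locus was recovered with Msa1. The Msa1 peak held 249 tags in the Msa1-TAP library, against 14 tags in the untagged library, which was 12.5-fold more after scaling (7.30 to 23.2). It took 0.0692% of all 359942 Msa1-TAP tags (0.0611 to 0.0783), against 0.00554% of the untagged tags (0.0033 to 0.00931). Both folds use the same untagged library. The lists hold only peaks of at least 4-fold over it, so any listed peak is above untagged by selection. Only the size of the 2 folds is described here. The study, by contrast, reports meiRNA as not enriched with Msa1-TAP, both by qRT-PCR and in its CLIP-Seq. For CLIP-Seq it shows tracks with a y axis normalized across samples. It also called Mei2 targets against Msa1-TAP and untagged cells separately. These measures are not the fold over untagged used here. The cause of the difference between the study's statement and the listed Msa1 peak was not tested. The Msa1 span was low in untagged tags (8.42 per kb, against 21.1 per kb over the Mei2 peak), and with the level of the Mei2 peak as background the Msa1-TAP fold was 4.98.

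In the Msa1 list the meiRNA peak stood lower than in the Mei2 list in tags, fold, tags per kb and lower bound. It was 9th of 140 in tags, 13th in fold and 32nd in tags per kb, but 3rd in the lower bound of the fold. The peaks beside it in the order of tags held 256 tags at SPBC725.03, 136 tags over uba3, the NEDD8-activating enzyme gene, with SPNCRNA.651 and SPNCRNA.2188, and 267.5 tags on the mitochondrial genome. Their folds were 4.13 (2.99 to 5.83), 4.65 (2.91 to 7.81) and 4.75 (3.39 to 6.82). Of the 140 Msa1 peaks, 4 had an interval wholly above 4 (2.86%), and meiRNA was among them. It supplied 2.58% of the 9634 Msa1-TAP tags in listed peaks, and its clonal fold was 1.23 beside a median of 1.1.

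Set against each other, the called peaks took a share of library tags that was 39.3 times as large in Mei2-TAP as in Msa1-TAP (34.6 to 44.8). The Mei2 peak is 3769 nt long and the Msa1 peak 1663 nt, so the spans differ. Msa1-TAP tags of the Mei2 span outside the Msa1 peak are not in the list, and over the Mei2 span the ratio of shares can be no more than 39.3. Per kb of each called peak the Mei2-TAP level was 17.4 times the Msa1-TAP level (15.3 to 19.8).

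**Figure D2:**
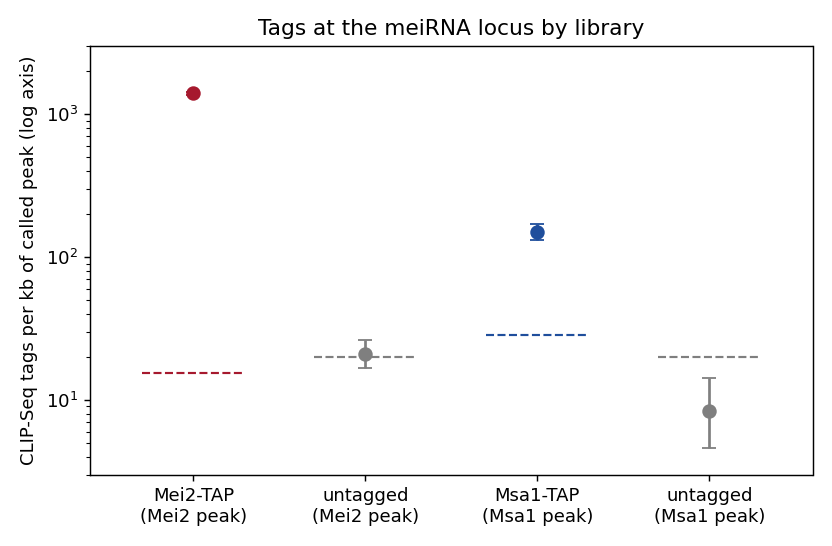
Tags per kb of called peak (log axis) in the Mei2-TAP and untagged libraries over the Mei2 peak, and in the Msa1-TAP and untagged libraries over the Msa1 peak. Bars are 95% counting intervals and dashed lines are each library's total tags per kb of the nuclear genome. The levels are 1400 and 21.1 over the Mei2 peak, and 150 and 8.42 over the Msa1 peak.

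In tags per kb of each called peak, the ratio of Mei2-TAP to Msa1-TAP was higher at meiRNA than at the other pairs of overlapping peaks. The members of a pair were called separately and differ in length, so the ratio describes the listed peaks and is not a measurement over 1 shared stretch. Overlaps of 1 nt or more gave 19 pairs from 18 Mei2 peaks (14.1% of that list) and 19 Msa1 peaks (13.6% of that list). At the other 18 pairs, Mei2-TAP over Msa1-TAP per kb lay between 0.561 and 3.31 (median 1.17). The highest was at nc-tgp1, a non-coding RNA upstream of the phosphate gene tgp1, where the interval was 1.91 to 6.20. Of these 18 pairs, 4 had an interval wholly above 1 and 1 wholly below.

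**Figure D3:**
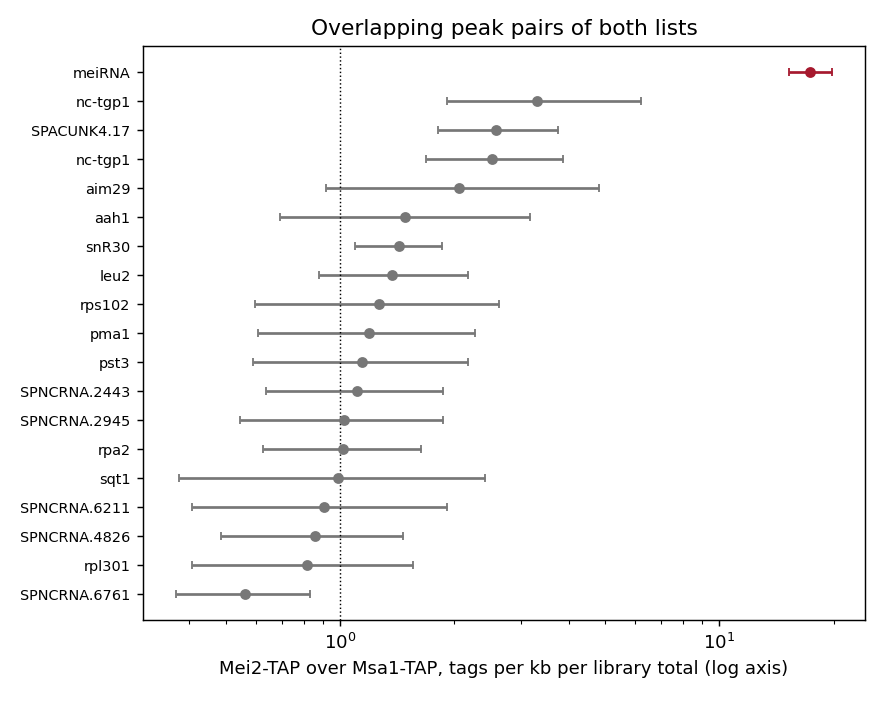
Mei2-TAP over Msa1-TAP (log axis), in tags per kb of each called peak and per library total, for the 19 overlapping pairs, named by the gene with the longest overlap except for meiRNA. Bars are 95% counting intervals and the dotted line marks equal levels. meiRNA lies at 17.4 and the other 18 pairs between 0.561 and 3.31.

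The third comparison asked where the peaks lie. The Mei2 peak runs from chromosome II 336229 to 339998 and the Msa1 peak from 338132 to 339795. Each is the longest of its list, with the next peaks at 1654 nt for Mei2 and 725 nt for Msa1, and the median at 200 nt in both lists. The Msa1 peak lies wholly inside the Mei2 peak and makes up 44.1% of it. The Mei2 peak extends 203 nt further towards the 5′ end of sme2 and 1903 nt further on the downstream side.

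In RefSeq ASM294v3, sme2, named there as the long isoform, covers 339346 to 340907 on the minus strand (1562 nt), and the short isoform, sme2-S, covers 340399 to 340907 (509 nt). Both share their 5′ end in this annotation. The study draws sme2 with its 3′ end at about the same place but a shorter 5′ side, and a 3′ extension beyond that end. Overlaps as a share of sme2, distances to sme2-S and the uncovered 5′ part therefore hold for the RefSeq annotation alone. The end of the 3′ extension that the study draws, past the annotated long isoform, is not given in this annotation. The peaks could be placed only against the annotated 3′ end and the hexamers. The Mei2 peak overlapped the 3′ part of sme2 by 653 nt (41.8% of the gene) and the Msa1 peak by 450 nt (28.8%). Neither peak touched sme2-S as annotated, with gaps of 400 nt from the Mei2 peak and 603 nt from the Msa1 peak. The most 5′ 909 nt of sme2 lay outside the Mei2 peak. From read coverage with Mei2-TAP, the study reports more reads at the 5′ end of meiRNA. The peak lists hold no coverage along the RNA, so that pattern was not tested here, and the peak edges do not replace it.

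Most of each peak lay downstream of annotated sme2. The Mei2 peak continued for 3117 nt past the 3′ end and the Msa1 peak for 1214 nt. The first stretch there, 1065 nt from 338281 to 339345, has no annotated gene on the sme2 strand, and it made up 64.0% of the Msa1 peak and 28.2% of the Mei2 peak. Beyond it lies aga1, a glutamate N-acetyltransferase gene on the same strand, covered whole by the Mei2 peak (1930 nt, 51.2% of the peak) and for 149 nt by the Msa1 peak, of which 7 nt were coding. At its far end the Mei2 peak also covered 448 nt of mti2, a mitochondrial translation initiation factor gene on the other strand, 220 nt of them coding.

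The peak lists label all 268 peaks as plus strand, so the label does not tell the strands apart, and other non-coding RNAs lie opposite. Both peaks covered the whole of SPNCRNA.4673 (354 nt), and SPNCRNA.4674 was covered for 621 nt by the Mei2 peak and 418 nt by the Msa1 peak. Whether tags came from the sme2 strand, from these RNAs or from aga1 mRNA was not tested. SPNCRNA.1342 and mrpl8, a mitochondrial ribosomal protein gene, which overlap the 5′ part of sme2, lay under neither peak.

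**Figure D4:**
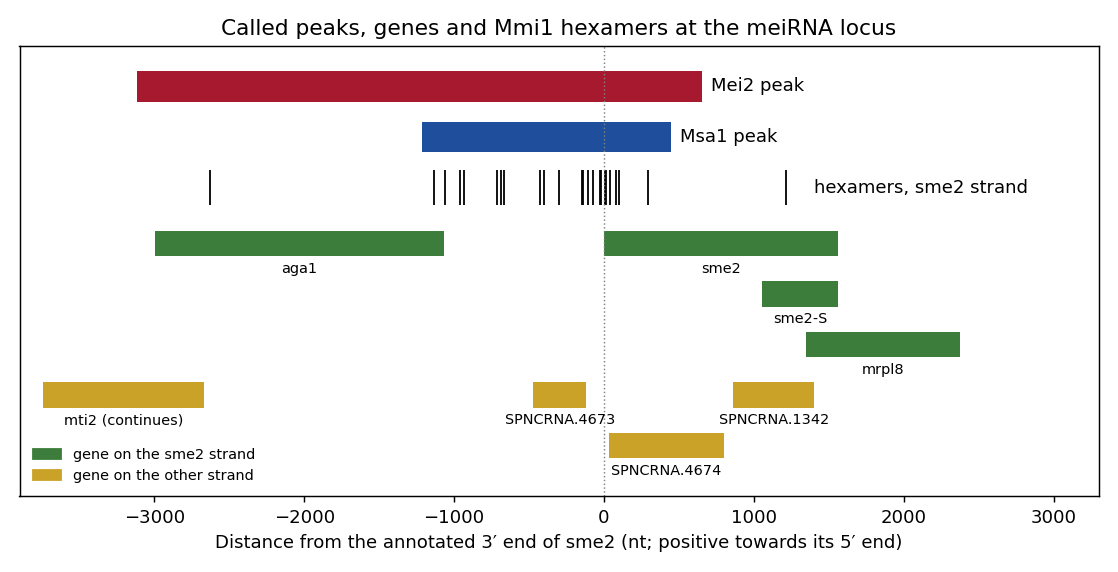
Map of the locus to scale, with distance in nt from the annotated 3′ end of sme2 on the x axis, positive towards its 5′ end. Bars show the Mei2 and Msa1 peaks and the annotated genes on the sme2 strand (green) and the other strand (yellow), and ticks show the Mmi1 hexamers of the sme2 strand. The Msa1 peak lies inside the Mei2 peak, 22 of the 23 hexamers under the Mei2 peak lie in the Msa1 span, and sme2-S lies outside both peaks.

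The untagged tags were not spread evenly over the Mei2 peak. Both lists count the same untagged library, and at the 4 other pairs whose ends agree within 25 nt the untagged tags differed by no more than 0.5. Inside the Msa1 span the untagged library had 14 tags, or 8.42 per kb (4.60 to 14.1). The remaining 2106 nt of the Mei2 peak, most of it over aga1, had 65.5 tags, or 31.1 per kb (24.0 to 39.6). The remainder was 3.69 times as dense as the Msa1 span (2.05 to 7.13). The library's total per kb of nuclear genome was 20.1, which lies between these levels.

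Mei2-TAP tags are listed for its peak as a whole, so their level inside and outside the Msa1 span is not known. Over the whole peak, Mei2-TAP tags per kb were 90.7 times that library's total per kb of nuclear genome, and untagged tags 1.05 times theirs. Over the Msa1 peak, Msa1-TAP tags per kb were 5.23 times and untagged tags 0.419 times. These totals include ribosomal and mitochondrial RNA, so they are a scale for the locus and not a measured background.

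The fourth comparison set the peaks beside the Mmi1 hexamer, UNAAAC where N is U, C or G. It was read in the genome with T for U. The locus was placed by position, but meiRNA was already known to carry many copies. A high count there was thus known in advance, and the counts and windows below are description alone. Copies were counted on the sme2 strand unless stated, and no copies can overlap. The Mei2 peak held 23 copies and the Msa1 peak 22. The copy under the Mei2 peak alone lies inside aga1, at 336713 to 336718. A copy of annotated sme2 at 340553 to 340558 lies under neither peak. The study cites 23 copies for the meiotic form of meiRNA, which need not be the same 23. The 22 copies lay between 338209 and 339638, at 13.2 per kb of the Msa1 span, with 0.475 per kb in the rest of the Mei2 peak. At the second base, 13 of them had U, 7 had G and 2 had C. The opposite strand held 13 copies under the Mei2 peak and 8 under the Msa1 peak.

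Most hexamers lay downstream of the annotated 3′ end of sme2. Annotated sme2 held 7 copies, 6 of them under the Mei2 peak, and sme2-S held 1. The 1214 nt of the Msa1 peak downstream of annotated sme2 held 16. Cut into windows of the same length, each strand counted separately and the meiRNA peak left out, the 3 nuclear chromosomes gave 15102 windows as long as the Msa1 peak, of which 89.3% held at least 1 copy, with a median of 2 and a maximum of 17, and 0 held 22 or more. At the length of the Mei2 peak, 99.2% of 6662 windows held at least 1 copy, with a median of 5 and a maximum of 19. At the length of sme2, 87.8% of 16088 windows held at least 1 copy and 0.889% held 7 or more.

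No other listed peak came near this number. On the strand with more copies, the other 127 Mei2 peaks held at most 4, with a median of 1, and 54 held 0. The other 136 nuclear Msa1 peaks held at most 3, and 82 held 0. These peaks are shorter, and per kb the meiRNA peak stood 8th among the Mei2 peaks with 6.10 and 2nd among the nuclear Msa1 peaks with 13.2. The meiRNA peaks had a GC content of 37.1% for Mei2 and 32.1% for Msa1, where the medians of the other peaks were 39.8% and 35.8%. A hexamer is a match of letters, and binding of Mmi1 was not measured in these libraries.

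**Figure D5:**
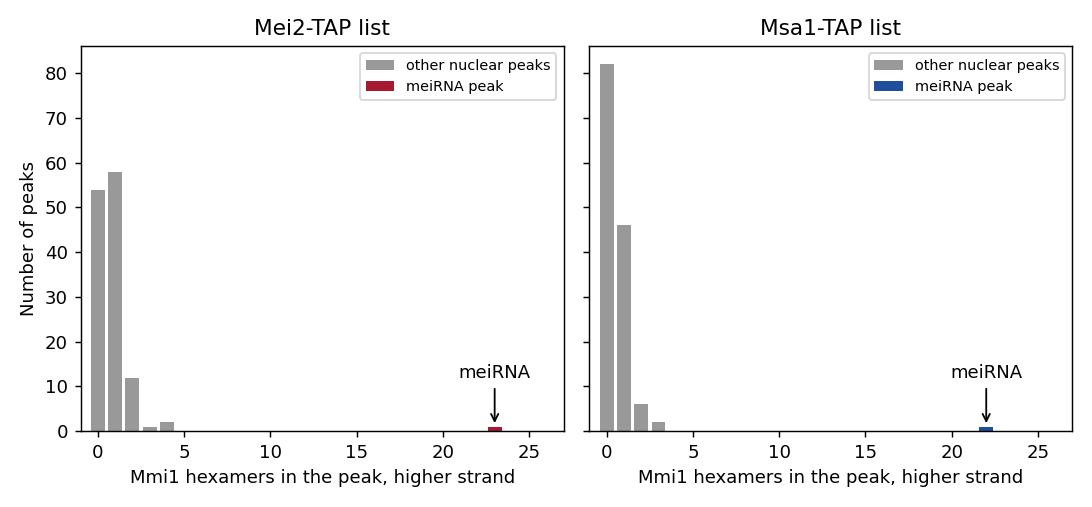
Number of listed nuclear peaks (y axis) by the count of Mmi1 hexamers on the strand with more copies (x axis), for the Mei2-TAP list (left) and the Msa1-TAP list (right). Grey bars are the other peaks and the coloured bar is the meiRNA peak. meiRNA holds 23 and 22 copies, and the other peaks hold at most 4 and 3.

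The last comparison placed meiRNA among the genes of its pathway. Of 30 listed genes, 3 lay under a Mei2 peak and 1 under an Msa1 peak. Of all 12645 annotated genes, 197 (1.56%) lay under a Mei2 peak and 218 (1.72%) under an Msa1 peak. The list of 30 was drawn up with earlier results of these data known. Its share therefore cannot be read as an excess over all genes. Folds are over untagged, and the intervals of all the Mei2 folds below lie under that of meiRNA.

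Of 14 genes for Mmi1 and the proteins that act with it, 2 lay under Mei2 peaks and 0 under Msa1 peaks. mmi1 lay under a pair of Mei2 peaks, of 80 Mei2-TAP tags against 6.5 untagged tags (16.0-fold, 7.24 to 42.9) and of 66 tags against 15 untagged tags (5.73-fold, 3.23 to 10.8). dis3, an exosome ribonuclease gene, lay with SPNCRNA.6374, a non-coding RNA of the other strand with the longer overlap, under a peak of 11 Mei2-TAP tags against 3 untagged tags (4.77-fold, 1.26 to 26.6). The non-coding SPNCRNA.6803 lies opposite mmi1 under both of its peaks. The genes with no peak were erh1, mot2, not1, caf1, ccr4, red1, mtl1, iss10, rmn1, pab2, pla1 and rrp6.

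Of 3 non-coding RNAs bound by Mmi1, nc-tgp1 lay under peaks of both proteins, with SPNCRNA.4681 on the other strand, and mamRNA and prt2 under none. Its Mei2 peak had 147 Mei2-TAP tags against 10 untagged tags (19.1-fold, 10.1 to 40.7). Its Msa1 peaks had 29.5 Msa1-TAP tags against 3 untagged tags (6.90-fold, 2.14 to 35.4) and 14 tags against 1 untagged tag (9.82-fold, 1.49 to 415).

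None of the 7 meiotic transcripts that Mmi1 silences (mei4, rec8, ssm4, spo5, mcp5, crs1 and mug8) lay under a peak of either list. The same held for the 5 genes of the switch upstream, namely mei2 itself, the kinase gene pat1, its inhibitor mei3, the transcription factor gene ste11 and the 14-3-3 gene rad24, and for msa1. A gene with no listed peak can still have tags in a library, since the lists hold peaks of at least 4-fold.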

How the data were processed

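STAR, SAMtools, deepTools and HOMER are the tools that the authors name, and ASM294v2 the build. HOMER called peaks in its histone mode, which allows wide ones, with the untagged library as background. Versions were not given in the sources used here. Libraries were strand-specific and amplified for 12 PCR cycles. The deposited lists hold estimated counts of tags in steps of 0.5, tag signal per 10000000 tags, the fold (a ratio of scaled tags), a p-value of HOMER, not used for calls except in 1 alternative, and a peak score, not used. Each list is filed with 1 tagged library and was taken as that library against the untagged one. In each list the larger of the libraries was scaled down to the total of the smaller. Copies filed with the series were identical.

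Totals and raw tags were recovered from scaled and unscaled values with Python 3.11.15, numpy 2.4.6, pandas 2.3.3 and scipy 1.17.1, a step checked on simulated data. Of 119 Mei2 peaks with fewer than 20 untagged tags, 119 came within 0.1 of a whole step, as did 140 of 140 Msa1 peaks. Intervals are exact Clopper-Pearson intervals of tagged against untagged tags, or Poisson intervals for tags per kb. They describe counting alone. PCR reads without molecular identifiers can be copies of 1 molecule, so the intervals may be too narrow even for counting error.

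Genes and sequence came from RefSeq ASM294v3. Of 165 genes with ASM294v2 coordinates in the study's annotation of its peaks, 162 had the same start or end there. That count does not cover sme2, whose drawn 5′ end in the study differs. 0 peaks lay past a chromosome end. The locus, the pathway list and the settings were chosen with earlier results of these data known. Genes named are sme2, those overlapping the window of the locus, those at the 3 peaks nearest in tags, and listed pathway genes. The genes at nc-tgp1 in the shared pairs, and the 108-fold peak, were singled out after their values were seen.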

Additional observations from a re-analysis of the deposited data

How the results depend on the processing

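Leaving the tags of listed peaks, or of meiRNA alone, out of the totals gave folds over untagged of 91.1 and 88.8 for Mei2-TAP and 12.8 and 12.5 for Msa1-TAP. The ratio of shares, run without listed peaks only, was 40.6. Without scaling to totals, the Mei2-TAP fold was 66.4. With the highest untagged tags per kb of any peak on chromosome II as background, the Mei2-TAP fold was 1.67. That level was 1092 per kb at snoU14, against 21.1 per kb at the meiRNA peak itself. The Msa1-TAP fold was 4.98 with the untagged tags per kb of the Mei2 peak as background. Mei2-TAP over Msa1-TAP was 17.4 per kb. Untagged tags per kb inside over outside the Msa1 span were 0.271, and 0.531 and 0.135 at the upper and lower ends of the interval of the tags inside. In the Mei2 list the peak was 1st by tags, 2nd by fold and 3rd by tags per kb, and in the Msa1 list 9th by tags, 32nd by tags per kb, 3rd by lower bound and 1st by length. The peaks were shared in 1 of 1 case by 1 nt, by 50% of the shorter peak and at 8-fold with p of 1e-10, and in 0 by 50% of the longer. Hexamers were 28 and 27 with TAAAAC added, against 13 and 8 on the other strand. The cause of these differences was not tested. No paired analysis was possible because each list is filed with 1 tagged library and gives 1 set of values, which also allowed no replicate to be left out.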
